A study of Homo sapiens with 3 samples.

Results

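The BAF complexes are ATP-dependent chromatin remodelers, and 10 genes of their subunits were examined in the RNA of H9 cells, an established line of human embryonic stem cells. The genes were SMARCA2, SMARCA4, SMARCB1, SMARCC1, SMARCC2, SMARCD1, ARID1A, ARID1B, ACTL6A and ACTL6B, taken by symbol, and all 10 were found among the 58051 genes of the deposited counts. The cells were wild type, received no treatment and were grown on vitronectin. There was 1 condition with 3 replicates, so the levels describe untreated H9 cells and no difference between groups was tested. The study sequenced this RNA to sort genes by expression before it compared DNA breaks at their start sites and splice sites.

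BAF complexes, the mammalian SWI/SNF family, use the energy of ATP to slide or evict nucleosomes and thereby open promoters and enhancers. Each complex carries 1 ATPase, SMARCA4 or SMARCA2, on a core of scaffold subunits, and several positions can be filled by either of 2 or more paralogs. The choice of paralog changes with cell type. In mouse embryonic stem cells the complex is known for SMARCA4, SMARCC1, ARID1A and ACTL6A, whereas ACTL6B takes the place of ACTL6A when neurons leave the cell cycle. Canonical BAF is defined by ARID1A or ARID1B, the PBAF form by ARID2, PBRM1, BRD7 and PHF10, and the noncanonical ncBAF form by BRD9 with BICRA or BICRAL.

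Between 8655155 and 12024802 reads were counted on genes in each replicate. A level is given in TPM, a measure of abundance per transcript length, which is the deposited counts divided by gene length and scaled to the same sum in every replicate. Gene length was the summed length of all annotated exons (the union), and a level on the length of the canonical transcript is given where it matters. All 6 pluripotency genes examined (POU5F1, NANOG, SOX2, LIN28A, DPPA4 and TDGF1) had mean levels between 275 and 2576 TPM. Of 8 neuronal genes, 2 (NEUROD1 and SNAP25) had at most 3 reads in every replicate, and the other 6 had more than 3 in each. SYT1 reached 39.95 ± 1.13 TPM, STMN2 15.3 ± 2.54 TPM and MAP2 14.6 ± 2.04 TPM (SD, n = 3). RBFOX3 had 3.62 ± 0.513 TPM, DCX 1.97 ± 0.624 TPM and SYP 1.58 ± 0.258 TPM (SD, n = 3). In RNA from whole cultures, fewer cells that express a gene and less RNA of it per cell cannot be told apart.

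Start-site sequences are shown for the ATPases SMARCA4 and SMARCA2, whose levels differ widely, and for ACTL6B, the member with almost no reads. They are RefSeq windows on GRCh38.p14, from 250 bases before to 50 bases after an annotated start, read 5′ to 3′ on the strand of the gene, with CpG dinucleotides in capitals. The most upstream SMARCA4 window lies at chr19:10960780-10961079 (plus strand), that of SMARCA2 at chr9:2015097-2015396 (plus strand) and the ACTL6B window at chr7:100656399-100656698 (minus strand).
SMARCA4: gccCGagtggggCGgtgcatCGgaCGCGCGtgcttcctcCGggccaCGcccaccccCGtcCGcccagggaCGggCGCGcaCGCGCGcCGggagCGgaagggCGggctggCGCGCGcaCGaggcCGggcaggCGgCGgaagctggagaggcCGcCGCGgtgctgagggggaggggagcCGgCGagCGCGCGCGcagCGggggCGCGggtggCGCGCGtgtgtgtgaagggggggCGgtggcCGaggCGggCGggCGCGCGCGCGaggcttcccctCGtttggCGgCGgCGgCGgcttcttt
SMARCA2: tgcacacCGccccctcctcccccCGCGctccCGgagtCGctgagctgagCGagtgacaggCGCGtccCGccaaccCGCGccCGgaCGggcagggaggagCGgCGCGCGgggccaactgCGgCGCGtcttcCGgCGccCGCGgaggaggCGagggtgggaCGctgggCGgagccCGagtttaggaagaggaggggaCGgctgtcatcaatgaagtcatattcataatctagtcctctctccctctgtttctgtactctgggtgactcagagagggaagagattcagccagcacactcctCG
ACTL6B: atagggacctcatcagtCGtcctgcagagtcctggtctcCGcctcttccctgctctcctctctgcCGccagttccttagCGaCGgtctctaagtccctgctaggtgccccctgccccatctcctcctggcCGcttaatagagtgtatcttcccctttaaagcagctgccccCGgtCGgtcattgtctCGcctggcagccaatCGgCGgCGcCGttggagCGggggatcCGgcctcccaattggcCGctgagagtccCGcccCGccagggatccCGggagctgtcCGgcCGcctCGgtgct
The SMARCA4 window holds 55 CpGs, more than 99.6% of the 35116 windows of the same length in the RefSeq table, whose median is 14. The SMARCA2 window holds 30 and the ACTL6B window 22, which are above 77.6% and 62.3% of windows. The letters GGGCGG (a GC box, either strand, overlapping matches counted) occur 5 times in the SMARCA4 window, 2 times in that of SMARCA2 and 1 time in that of ACTL6B, and 45.0% of all windows hold them. CCAAT occurs 3 times in the ACTL6B window and not in the other two, against 34.6% of all windows that hold it, and TATAAA, held by 11.5% of windows, occurs in none of the 3. The table had 12 windows for 7 of the members, and the windows not shown hold 5 CpGs for SMARCA4 and 3, 4 and 9 for SMARCA2. All 4 SMARCA2 windows, the one shown included, lie downstream of the start of the gene in GENCODE. The windows of SMARCB1, SMARCD1 and ARID1A hold 25, 35 and 33 CpGs, and the 2 windows of ARID1B hold 5 and 39. SMARCC1, SMARCC2 and ACTL6A had no window. The matches are descriptions of sequence, and no binding was measured here.

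Most BAF subunit genes were strongly expressed, in an order from SMARCC1, at 364 ± 15.2 TPM, to ACTL6B, at 0.219 ± 0.196 TPM (SD, n = 3 for both). Of the 10 members, 7 belonged to the top quantile of expressed genes, called high expression in the study (here, mean levels above 27.0 TPM), which holds 28.8% of the 19629 protein-coding genes. ARID1B and SMARCA2 were in the medium class and ACTL6B was in the low class, which ends at 3.35 TPM. The median over the members was 64.0 TPM, and the median over all protein-coding genes was 7.10 TPM. With the canonical transcript as gene length, 8 members were in the high class, again beside 28.8% of protein-coding genes, because ARID1B rose from 19.5 to 52.5 TPM. The same 7 members were in the high class in every replicate taken alone.

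**Figure D1:**
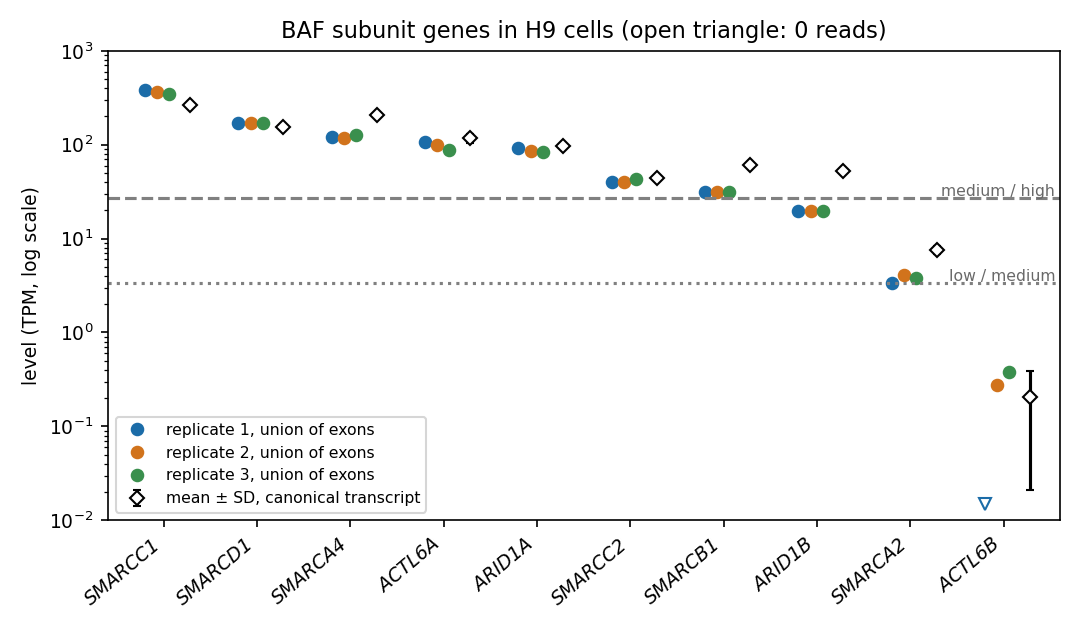
Levels of the 10 BAF subunit genes in TPM on a log axis. Filled circles are the 3 replicates on the length of the union of exons, the open triangle is the replicate with 0 reads on ACTL6B, and diamonds are the mean ± SD (n = 3) on the length of the canonical transcript. Dashed and dotted lines are the class boundaries at 27.0 and 3.35 TPM. SMARCC1 lies highest in every replicate, and SMARCA2 and ACTL6B lie far below the other 8 genes.

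Neighbors in this order differed by more than the SD of either gene at all 9 steps, with the same sign in 3 of 3 replicates. Only ACTL6A and ARID1A had overlapping ranges, from 87.2 to 107 TPM and from 83.6 to 92.2 TPM. Part of the order depends on gene length. On canonical transcripts SMARCA4, at 205 ± 7.08 TPM, stood above SMARCD1, at 153 ± 1.15 TPM (SD, n = 3 for both), and SMARCC2 fell below SMARCB1 and ARID1B. Of the 45 pairs of members, 42 kept their order.

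SMARCA4, the catalytic ATPase, far exceeded its alternative SMARCA2. SMARCA4 (ENSG00000127616, chromosome 19, 10960932 to 11079426, 35 exons in the canonical transcript) had 4941, 5568 and 4344 reads in replicates 1, 2 and 3, which are 122, 118 and 126 TPM. SMARCA2 (ENSG00000080503, chromosome 9, 1980290 to 2193624, 34 exons) had 168, 235 and 163 reads, or 3.38, 4.07 and 3.85 TPM. No SMARCA2 replicate came near the lowest SMARCA4 replicate. The ratio of SMARCA4 to SMARCA2, taken within each library, was 36.0, 29.0 and 32.6, with a mean log2 ratio of 5.02 ± 0.156 (SD, n = 3). On canonical transcripts the ratio was 30.3, 24.4 and 27.5. SMARCA4 held 96.7% of the reads of the pair in replicate 1 (exact 95% interval 96.2% to 97.2%), 96.0% in replicate 2 (95.4% to 96.4%) and 96.4% in replicate 3 (95.8% to 96.9%).

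SMARCA2 stood close to a class boundary on the union of exons but not on its canonical transcript. On the union its mean of 3.77 TPM is just above the 3.35 TPM that divides low from medium genes, but each replicate taken alone put it in the low class, where the boundary was 4.23, 4.32 and 4.75 TPM. It exceeded 43.4% of protein-coding genes by mean level, and SMARCA4 exceeded 93.5%. On the canonical transcript SMARCA2 had 7.55 ± 0.709 TPM (SD, n = 3), above a boundary of 3.13 TPM and above 51.2% of genes. The annotation lists 72 transcripts for SMARCA2 and 55 for SMARCA4, and their unions of exons are 3.32 and 2.79 times as long as the canonical transcripts, against a median of 1.31 over protein-coding genes. Counts per gene do not show which of these transcripts were made.

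The scaffold gene SMARCC1 was the highest of the members and exceeded its paralog SMARCC2. Both proteins form the base on which the complex assembles. SMARCC1 (ENSG00000173473, chromosome 3, 47585269 to 47782106, 28 exons) had 7540, 8342 and 5918 reads, or 380, 362 and 350 TPM, and exceeded 98.4% of protein-coding genes. SMARCC2 (ENSG00000139613, chromosome 12, 56162359 to 56189567, 29 exons) had 953, 1100 and 885 reads, or 39.9, 39.6 and 43.4 TPM. The groups of 3 values were far apart, although SMARCC2 was itself in the high class. The ratio was 9.53, 9.13 and 8.05, with a mean log2 ratio of 3.15 ± 0.126 (SD, n = 3). With canonical lengths it was 6.34, 6.08 and 5.36, and the mean went from 8.90 ± 0.763 to 5.92 ± 0.508 (SD, n = 3). Replicate 3 had the lowest SMARCC1, the highest SMARCC2 and thus the smallest ratio.

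SMARCD1 and SMARCB1 varied little between libraries. SMARCD1, which links the complex to transcription factors (ENSG00000066117, chromosome 12, 50085200 to 50100707, 13 exons), had 2184, 2501 and 1838 reads, or 171, 169 and 169 TPM. SMARCB1, a core subunit that contacts the nucleosome and is lost in rhabdoid tumors (ENSG00000099956, chromosome 22, 23786931 to 23838009, 9 exons), had 1356, 1572 and 1149 reads, or 31.5, 31.4 and 31.3 TPM. Both were high in each library, and no replicate stood apart. On its canonical transcript SMARCB1 had 60.4 ± 0.112 TPM (SD, n = 3), so that its distance from SMARCD1 depends on the length used.

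ARID1A and ARID1B, the large DNA-binding subunits that define canonical BAF, differed least of the 4 pairs of members, and by how much depends on gene length. ARID1A (ENSG00000117713, chromosome 1, 26693236 to 26782104, 20 exons) had 3827, 4102 and 2959 reads, or 92.2, 85.0 and 83.6 TPM. ARID1B (ENSG00000049618, chromosome 6, 156776020 to 157210779, 20 exons) had 2339, 2704 and 1992 reads, or 19.6, 19.5 and 19.5 TPM. ARID1A was the higher gene in every replicate. The ratio was 4.71, 4.37 and 4.28 on the union of exons, with a mean log2 ratio of 2.15 ± 0.0733, and 1.96, 1.82 and 1.78 on canonical transcripts, with 0.890 ± 0.0733 (SD, n = 3 for both). The union of ARID1B exons is 45931 bases, 4.46 times its canonical transcript of 10310 bases, whereas that of ARID1A is 1.85 times. ARID1A held 62.1% of the reads of the pair in replicate 1 (exact 95% interval 60.8% to 63.3%), 60.3% in replicate 2 (59.1% to 61.4%) and 59.8% in replicate 3 (58.4% to 61.1%).

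ACTL6A, the actin-like subunit of dividing cells, was abundant, and ACTL6B, its neuronal counterpart, was near the limit of detection. ACTL6A (ENSG00000136518, chromosome 3, 179562886 to 179588407, 14 exons) had 1026, 1102 and 710 reads, or 107, 99.3 and 87.2 TPM. ACTL6B (ENSG00000077080, chromosome 7, 100643097 to 100656448, 14 exons) had 0, 2 and 2 reads. Its values never exceeded 0.379 TPM, and the count of 0 in replicate 1 allows up to 3 reads, or 0.485 TPM. From the summed reads, ACTL6A was 460 times ACTL6B per length, with an exact 95% counting interval from 179 to 1688. With 4 reads in all, its level could not be ordered between replicates.

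**Figure D2:**
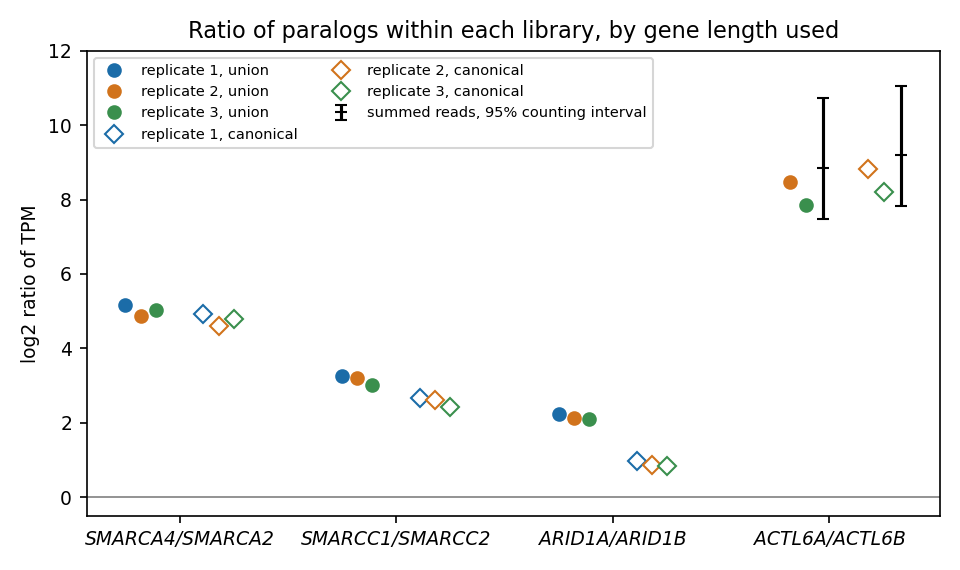
Log2 ratio of TPM of 4 pairs of paralogs, taken within each library. Circles use the union of exons and diamonds the canonical transcript, colors are the 3 replicates, and black bars are the ratio of summed reads with its exact 95% counting interval for ACTL6A and ACTL6B, where replicate 1 had no ACTL6B read. All points lie above 0, and the 2 gene lengths separate most for ARID1A and ARID1B.

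The other subunits were examined from a list of 19 genes, 7 shared between complexes, 5 of canonical BAF, 4 of PBAF and 3 of ncBAF. Of these, 10 were in the high class, 8 in the medium and 1 in the low class, beside 28.8% of protein-coding genes in the high class, and their median was 29.2 TPM. On canonical transcripts 12 were in the high class. The 4 PBAF genes, the bromodomain protein gene PBRM1 (86.8 ± 3.33 TPM), PHF10 (56.5 ± 3.47 TPM), BRD7 (50.6 ± 2.82 TPM) and ARID2 (38.5 ± 1.02 TPM; SD, n = 3), were all in the high class. Of the ncBAF genes, BRD9 had 29.2 ± 1.19 TPM, BICRAL 17.6 ± 1.79 TPM and BICRA 13.3 ± 1.70 TPM (SD, n = 3), so that 1 of 3 was in the high class. In replicate 1 alone BRD9 was in the medium class, at 28.2 TPM against a boundary of 28.6 TPM. So was BCL7B, another of the 10, at 27.5 TPM. SMARCE1, a core subunit of canonical BAF and PBAF, had 17.1 ± 0.995 TPM on the union of exons and 37.0 ± 2.02 TPM on its canonical transcript (SD, n = 3). ADCY7 lies over 41.8% of the BRD7 exons on the opposite strand, and another gene lies over 18.9% of the SMARCE1 exons on the same strand, so both counts are uncertain. ACTB, which is part of the complexes and of the cytoskeleton, had 4428 ± 152 TPM (SD, n = 3), and its level says nothing of BAF alone.

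The paralogs of each position were also summed. The ATPases summed to 126 ± 3.67 TPM, the ARID genes (ARID1A, ARID1B and ARID2) to 145 ± 3.63 TPM, the PHD finger genes (DPF1, DPF2, DPF3 and PHF10) to 105 ± 3.04 TPM and SS18 with SS18L1 to 117 ± 6.71 TPM (SD, n = 3 for each). The actin-like genes summed to between 87.6 and 107 TPM. The SMARCD genes had 243 ± 0.770 TPM and the SMARCC genes 405 ± 13.7 TPM (SD, n = 3). Lower sums on the union of exons were those of BCL7A, BCL7B and BCL7C (64.9 ± 5.27 TPM) and of BICRA and BICRAL (31.0 ± 0.253 TPM; SD, n = 3). BRD7 of PBAF and BRD9 of ncBAF, which belong to different complexes, summed to 79.8 ± 1.90 TPM (SD, n = 3). The ARID and PHD finger sums also mix complexes, since ARID2 and PHF10 belong to PBAF. SMARCB1 and SMARCE1, which have no paralog here, stood at 31.4 and 17.1 TPM. With canonical lengths the ATPases came to 213 ± 6.97 TPM, the ARID genes to 183 ± 3.95 TPM and the SMARCC genes to 308 ± 8.55 TPM (SD, n = 3). BRD7 and BRD9 then came to 112 ± 0.976 TPM (SD, n = 3). Levels of RNA do not give the composition of the protein complexes.

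Within positions, 1 paralog held most of the level in some and not in others. SMARCA4 held 97.0 ± 0.316% of its position, SMARCC1 89.9 ± 0.808%, SS18 83.1 ± 1.99% and SMARCD1 69.7 ± 0.374%. SMARCD2 was at 27.6 ± 0.314% and SMARCD3 at 2.66 ± 0.274% (SD, n = 3 for each). With canonical lengths SMARCA4 held 96.5 ± 0.371%, SMARCC1 85.5 ± 1.10%, SS18 88.7 ± 1.42% and SMARCD1 58.8 ± 0.438%. SMARCD2 then held 37.3 ± 0.382% (SD, n = 3 for each). CHPF2, at 21.7 ± 2.91 TPM (SD, n = 3), lies over 26.9% of the SMARCD3 exons on the opposite strand, so the SMARCD3 count is uncertain. ARID1A held 59.9 ± 1.66%, ARID2 26.6 ± 1.35% and ARID1B 13.5 ± 0.313%, but on canonical transcripts ARID1B (28.6 ± 0.630%) was above ARID2 (18.3 ± 0.906%; SD, n = 3). Of the 4 subunits known from neuronal BAF, only ACTL6B and DPF3 were near 0. DPF3 had 0, 4 and 3 reads, close to ACTL6B, whereas DPF1 had 111, 105 and 103 reads (8.59 ± 1.25 TPM) and SS18L1 251, 301 and 239 reads (19.6 ± 1.13 TPM; SD, n = 3). None of the 4 was in the high class, which with 4 genes and a share of 28.8% over protein-coding genes is no result about them.

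**Figure D3:**
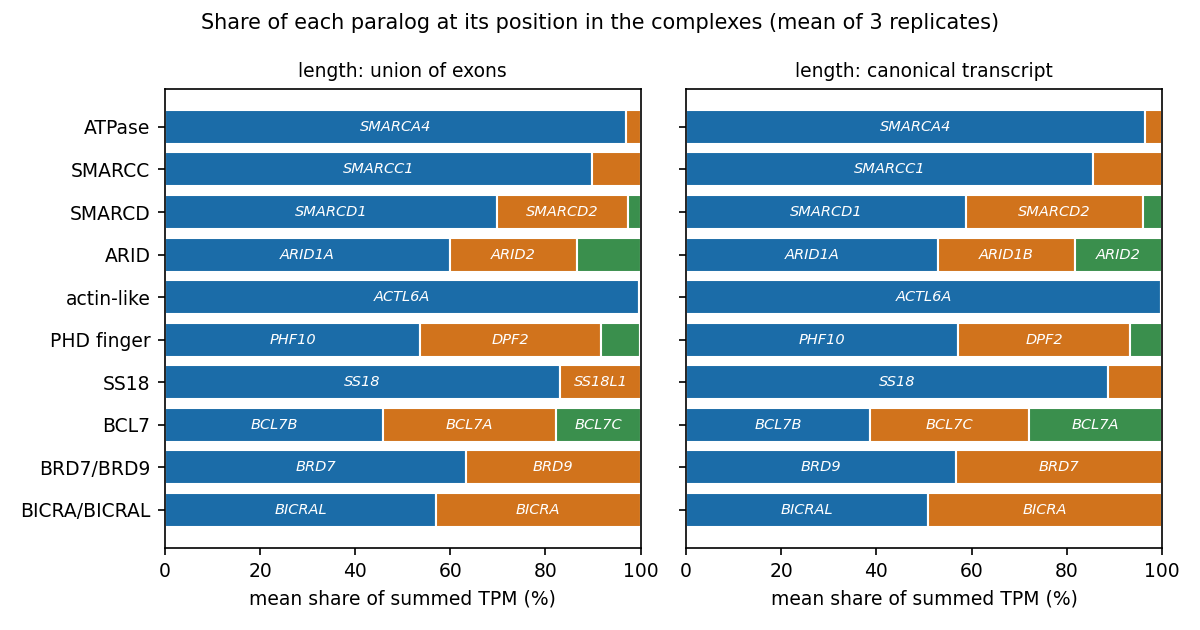
Mean share of each paralog in the summed TPM of its position (percent, n = 3 replicates), with the union of exons on the left and the canonical transcript on the right. BRD7 (PBAF) and BRD9 (ncBAF) belong to different complexes and are shown as a pair. ARID2 and PHF10 of PBAF are likewise shown with genes of canonical BAF. Segments are ordered by size, and the unlabeled ones are SMARCA2, SMARCC2, SMARCD3, ARID1B (left), ACTL6B, DPF1, DPF3 and SS18L1 (right). SMARCA4, SMARCC1 and ACTL6A fill most of their positions with either length, whereas the order of ARID1B and ARID2, of BRD7 and BRD9 and of BCL7A and BCL7C changes with it.

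Other families of remodelers give a scale for the ATPases. SMARCA5, an ISWI ATPase, had 238 ± 9.97 TPM and SMARCA1, of the same family, 109 ± 2.43 TPM (SD, n = 3), above and below the 122 ± 3.76 TPM of SMARCA4. On canonical transcripts SMARCA4 was above SMARCA5, at 205 ± 7.08 against 152 ± 5.78 TPM (SD, n = 3). EP400 had 37.3 ± 2.42 TPM, ATRX 32.9 ± 0.911 TPM and INO80 15.2 ± 0.579 TPM (SD, n = 3). SRCAP, at 3.46 ± 0.170 TPM (SD, n = 3), was near SMARCA2 on the union of exons but not on canonical transcripts, where SRCAP had 2.47 ± 0.124 TPM and SMARCA2 7.55 ± 0.709 TPM (SD, n = 3). Another annotated gene on its strand covers 73.1% of the SRCAP exons, so its count is uncertain.

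The 9 members with more than 3 reads in every replicate had a median coefficient of variation (CV) of 4.18% between replicates, and the median of high genes was 5.03%. ACTL6A varied most, at 10.4%, followed by SMARCA2 at 9.32%, and the CVs of ARID1B (0.294%), SMARCB1 (0.310%) and SMARCD1 (0.818%) were below the 2.08%, 2.73% and 2.16% that counting alone would give. In 6 of the 9 the CV was above that of counting, which for ACTL6A was 3.31%. Values from 3 libraries estimate a CV poorly, and without replicate 3 or replicate 1 the median fell to 2.20% or 2.35%. Replicate 1 was highest for 6 members, replicate 3 was lowest for 4 (ACTL6A, SMARCC1, ARID1A and SMARCB1) and replicate 2 for 4 others (SMARCA4, SMARCC2, SMARCD1 and ARID1B). Over all high genes the median log2 ratio of replicate 3 to the mean of the other 2 was -0.052.

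Base composition of the exons was set beside these deviations. ACTL6A, with the lowest exon GC content of the 9 at 39.6%, had a log2 ratio of replicate 3 to the mean of the other 2 of -0.25. SMARCA4, with the highest at 57.0%, had 0.067. The order was not followed throughout, since ARID1A (52.3% GC) had -0.084 and ARID1B (42.8%) had 0.0024. Across the 9 genes Spearman's rho was 0.317 for replicate 3, -0.133 for replicate 1 and -0.533 for replicate 2, a description of genes that share 3 libraries. The part of GC content in the spread of the members was not tested.

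**Figure D4:**
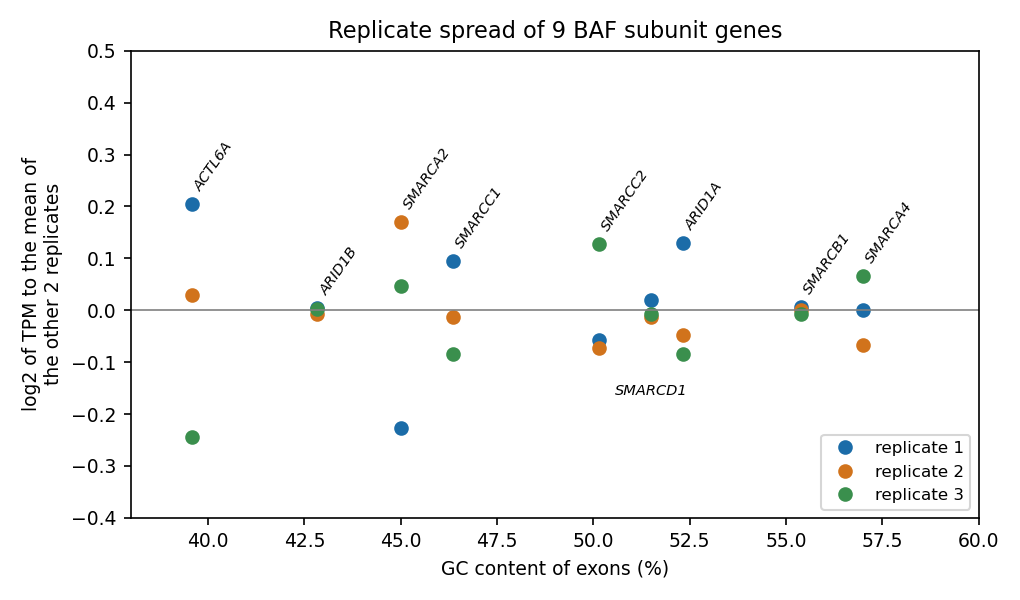
Log2 ratio of TPM in each replicate to the mean of the other 2, against the GC content of exons in percent, for the 9 members with more than 3 reads in every replicate. Colors are the replicates. ACTL6A has the widest spread and the lowest GC content, whereas ARID1B, SMARCB1 and SMARCD1 lie close to 0 in all 3.

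Exons shared with neighboring genes limit some of these values, since the strand setting of the counts is not known. DERL3 lies over 17.7% of the SMARCB1 exons on the opposite strand and had 7.02 ± 1.89 TPM (SD, n = 3). MYL6 lies over 7.83% of the SMARCC2 exons on the opposite strand and, at 196 ± 8.22 TPM (SD, n = 3), was above SMARCC2 itself. ACTL6A shares 5.97% of its exon length with opposite-strand genes, among them MRPL47 at 188 ± 10.9 TPM (SD, n = 3). SMARCC1, SMARCD1 and ACTL6B share none, and SMARCA2, SMARCA4, ARID1A and ARID1B share at most 2.40%. The part of these neighbors in the counts was not tested.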

How the data were processed

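RNA was measured in 3 libraries of total RNA from untreated H9 cells, made after depletion of ribosomal RNA from RNA with a RIN above 7. The submitters' processing notes name Trim Galore 0.4.4. The authors aligned reads to GRCh38 (TopHat2 2.1.1) and deposited whole-number counts of reads per Ensembl gene, without normalization. Which program, annotation and strand setting produced them is not given in the sources used here. The TPM values that the study computed with Cufflinks 2.2.1 were not used here.

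Identifiers were joined to GENCODE release 44 (GRCh38), and counts were divided by gene length and scaled to TPM in each replicate. Length was the union of exons, and the Ensembl canonical transcript was the main alternative. Classes followed the methods of the study, with a nonexpressed class under 0.01 TPM and 3 quantiles of the remaining protein-coding genes. Intervals are exact (Clopper-Pearson, 95%) and, like the limit of 3 counts that a count of 0 allows, cover counting error only. The planned SD of the ratio could not be given for ACTL6A and ACTL6B, since replicate 1 had no ACTL6B read, and the summed reads were used. With 1 condition no test was made, and the labels do not say whether the replicates are separate cultures. The ratio and class steps were run on counts simulated from the mean levels, with counting error only and the same gene lengths. The ACTL6A/ACTL6B ratio was left out. Such a run checks the computation and cannot show the effect of replicate spread or of the choice of length.

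The members and lists were chosen with earlier results of these data known. Genes named are the members and those of the lists of subunits, ATPases and markers, and genes that overlap them, which were chosen after the annotation was seen. Alternatives were other gene lengths, CPM, TMM factors (edgeR 4.0.16), DESeq2 1.42.0 size factors, other thresholds, thinned counts (median of 11 draws) and replicates left out. Scripts ran in Python 3.11.15 (scipy 1.17.1, pandas 2.3.3, numpy 2.4.6, matplotlib 3.10.9) and R 4.3.3.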

Additional observations from a re-analysis of the deposited data

How the results depend on the processing

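The direction of all 4 ratios of paralogs was the same under every alternative run. The canonical transcript as gene length moved the log2 ratio beyond its SD to 4.77 for SMARCA4/SMARCA2, 2.56 for SMARCC1/SMARCC2 and 0.890 for ARID1A/ARID1B. No division by length gave 4.73, 2.88 and 0.627. The longest transcript gave 2.56 for SMARCC1/SMARCC2 and 0.959 for ARID1A/ARID1B. These follow from the lengths, which enter as a constant factor. Counts thinned to 10% gave 5.18 for SMARCA4/SMARCA2. Leaving out 1 replicate gave 4.94 to 5.10, 3.10 to 3.22, 2.11 to 2.18 and, for ACTL6A/ACTL6B (8.80 from mean TPM), 8.16 to 9.54. ACTL6A/ACTL6B stayed within its counting interval, but could not be computed on thinned counts, where ACTL6B had no read in at least 1 draw. The number of members in the high class, 7, lay between 6 (threshold of 1 TPM, or thinned counts) and 8 (other lengths, CPM), and that of other subunits, 10, between 8 and 12. The share of protein-coding genes in that class was 28.8% on the union of exons and on canonical transcripts. It was not computed for the other settings and changes with the threshold, so those counts have no share beside them. Of the 45 pairs of members, 42 to 45 kept their order, and 35 with CPM, which is not per length. The median CV of 4.18% was 6.64% in thinned counts, as fewer reads add counting error, and 2.20% to 5.85% with 1 replicate left out. Among mean levels of the 10 members, the canonical length moved 9 by more than their SD (7 higher and 2 lower). TMM or DESeq2 factors moved none. Those levels were rescaled to the same mean sum over replicates, so their means could hardly move. No paired analysis was possible because all 3 replicates are of 1 condition. Depth limits ACTL6B above all.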
